A study of Mus musculus with 6 samples.

Results

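The genes described here are 2 beta-defensin genes, Defb19 and Defb36, and 4 cystatin genes, Cst3, Cst8, Cst9 and Cst12, which lie in 2 separate clusters on mouse chromosome 2. They were found by their symbols, which matched 6 of the 42747 rows of the count table, and all 6 were among the 18383 genes with enough counts to be tested. The set was chosen by the counts of Defb19 and Cst9 in these libraries, which were far lower in cKO than in WT. The cKO against WT values of the 6 genes are therefore given as a description, with no p-value. The data are polyadenylated RNA of whole testes taken at E16.5, with 3 cKO and 3 WT libraries. Each library is taken here to be from a separate mouse. The title of the series concerns CK1α, the kinase encoded by Csnk1a1, in Sertoli cells, so cKO is taken here to stand for its conditional knockout. Nothing in the labels names the Cre line or its promoter, the floxed allele, the strain background or any allele that the WT mice carry.

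Beta-defensins are small secreted peptides whose cysteines pair into disulphide bonds that hold a compact fold. They are known as antimicrobial peptides of epithelia, and many mouse members are made in the epididymis. Defb19 is also known as a testis gene of Sertoli cells, which enclose the germ cells within the testis cords. Type II cystatins are secreted inhibitors of papain-like cysteine proteases such as the cathepsins. Cst3 encodes cystatin C, which is made in most tissues and inhibits cathepsins tightly, whereas Cst8 (CRES) and Cst9 (testatin) belong to a reproductive branch of the family that lacks sites conserved for the inhibition of papain-like proteases. Testatin was first described in the fetal gonad at the time the testis forms.

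The coding sequences of the 2 beta-defensin genes are shown because they carry the feature that defines the family, the 6 cysteine codons. They were read from the GENCODE M21 transcripts on GRCm38, 5′ to 3′, with in-frame TGT and TGC codons in capitals and introns left out. The coding sequence of Defb19 is 252 bases long on the minus strand within chr2:152576163-152580247, and that of Defb36 is 204 bases long on the plus strand within chr2:152604488-152612626. Each is split over 2 exons, and each holds 6 cysteine codons, of which the last pair is adjacent.
Defb19: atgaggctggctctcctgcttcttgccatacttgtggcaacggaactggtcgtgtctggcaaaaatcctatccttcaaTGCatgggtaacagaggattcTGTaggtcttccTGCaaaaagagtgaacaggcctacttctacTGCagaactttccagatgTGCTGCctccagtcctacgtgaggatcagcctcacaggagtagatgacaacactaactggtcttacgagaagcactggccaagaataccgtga
Defb36: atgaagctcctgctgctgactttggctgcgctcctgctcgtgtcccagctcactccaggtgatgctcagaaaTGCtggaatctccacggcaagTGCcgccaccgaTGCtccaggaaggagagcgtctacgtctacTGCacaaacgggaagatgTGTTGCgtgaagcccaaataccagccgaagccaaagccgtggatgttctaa

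The promoter windows of 4 of the genes are shown because 3 of them belong to neighbouring cystatin genes with unlike values in cKO testes. They are RefSeq windows of GRCm38.p6, from 250 bases before to 50 bases after the transcription start, read 5′ to 3′ on the strand of the gene. A window was matched for 5 of the 6 genes, and none was matched for Defb19. The letters searched, on both strands, were AACAAT and ACAAAG for SOX factors, CTTTGAT for TCF/LEF factors, AAGGTCA for NR5A1, AGATAA for GATA factors and CANNTG for E-boxes. Matches to all but the E-box letters are in capitals, and no 2 of them overlap. The windows are chr2:148834897-148835196 for Cst9, chr2:148789115-148789414 for Cst12, chr2:148798589-148798888 for Cst8 and chr2:152604077-152604376 for Defb36, all on the plus strand.
Cst9: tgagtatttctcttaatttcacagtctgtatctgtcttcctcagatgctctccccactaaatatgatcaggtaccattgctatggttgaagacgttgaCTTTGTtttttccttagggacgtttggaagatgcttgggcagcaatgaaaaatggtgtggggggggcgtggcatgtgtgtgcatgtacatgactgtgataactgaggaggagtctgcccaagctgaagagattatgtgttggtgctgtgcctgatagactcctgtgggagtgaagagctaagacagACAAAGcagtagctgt
Cst12: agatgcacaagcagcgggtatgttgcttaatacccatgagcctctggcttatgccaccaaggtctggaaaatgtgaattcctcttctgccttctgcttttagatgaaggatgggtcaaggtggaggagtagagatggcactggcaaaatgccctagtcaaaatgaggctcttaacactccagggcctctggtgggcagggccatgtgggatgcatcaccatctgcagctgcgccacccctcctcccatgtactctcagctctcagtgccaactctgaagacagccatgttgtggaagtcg
Cst8: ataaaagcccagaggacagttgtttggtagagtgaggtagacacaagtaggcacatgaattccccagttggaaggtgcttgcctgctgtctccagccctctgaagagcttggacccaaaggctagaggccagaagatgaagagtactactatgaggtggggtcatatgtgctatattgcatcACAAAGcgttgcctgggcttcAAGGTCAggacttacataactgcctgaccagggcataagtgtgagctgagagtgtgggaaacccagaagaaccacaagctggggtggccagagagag
Defb36: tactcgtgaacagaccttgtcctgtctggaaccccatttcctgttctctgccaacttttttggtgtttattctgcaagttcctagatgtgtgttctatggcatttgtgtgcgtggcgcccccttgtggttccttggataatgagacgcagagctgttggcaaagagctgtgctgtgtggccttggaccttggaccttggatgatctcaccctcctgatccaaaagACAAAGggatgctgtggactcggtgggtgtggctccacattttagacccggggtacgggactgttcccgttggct

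The SOX letters ACAAAG were found in the windows of Cst9 (2 matches, 1 of them before the start and on the opposite strand, where it reads CTTTGT, and 1 after the start), Cst8 (1 match) and Defb36 (1 match), and in neither that of Cst12 nor that of Cst3. Of 32851 promoter windows in the table, 18.7% hold these letters. On the opposite strand they read CTTTGT, which differs from the start of the TCF/LEF letters CTTTGAT only in its last letter. A match to ACAAAG is therefore not assigned to SOX rather than TCF/LEF factors. The window of Cst8 also holds AAGGTCA, 47 bases before the start, which 4.72% of all windows hold. AACAAT was in none of the 5 windows (10.7% of all windows hold it). The same was so of CTTTGAT (3.73% of all windows) and of the GATA letters AGATAA (11.2%). E-box letters were in all 5 windows, with 1 to 4 matches each, and 72.3% of all windows hold them. The Cst3 window has 60.3% G and C and 13 CpG dinucleotides, against 46.0% and 3 in that of Cst9, 52.7% and 3 in that of Cst12 and 51.0% and 1 in that of Cst8. The median over all windows is 52.7% and 7.

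Library totals were 15092619 to 17431546 counts, so each of the 6 genes except Defb36 had at least 174 counts in every library. Csnk1a1 itself stood at 377 to 405 CPM (counts after scaling of the libraries to the same total) in cKO and 348 to 396 CPM in WT, and the deleted part of the gene is not given, so its count does not check the labels. Markers of each expected cell type were present in every list, with 0 listed marker genes at 0 counts throughout. In whole testes, fewer cells of a type and less RNA per cell cannot be told apart.

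In normal (WT) testes these were well expressed genes, apart from Defb36. On the FPKM scale, which divides by gene length and allows comparison between genes, Defb19 led with 182, 192 and 207 FPKM in the 3 WT libraries, and its mean of 194 ± 12.5 FPKM (SD, n = 3) ranked 109th of the 18383 tested genes. Its deposited gene length is 394 bases, the shortest of the 6. Cst9 followed at 116, 123 and 102 FPKM and Cst3 at 99.7, 104 and 91.9 FPKM, and the ranges of these 2 genes overlapped. Cst8 stood at 45.9, 50.2 and 43.9 FPKM and Cst12 at 44.1, 41.8 and 34.8 FPKM, again with overlapping ranges. Defb36 was the lowest at 15.6, 17.6 and 14.4 FPKM, and its mean of 15.9 ± 1.63 FPKM ranked 4360th. In cKO testes the order was another one, led by Cst3 with a mean of 89.0 FPKM and Cst8 with 55.2 FPKM, followed by Defb19 (32.9), Cst9 (22.1), Cst12 (20.0) and Defb36 (8.31). Defb19 and Cst9 had stood above Cst8 in every WT library and stood below it in every cKO library.

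**Figure D1:**
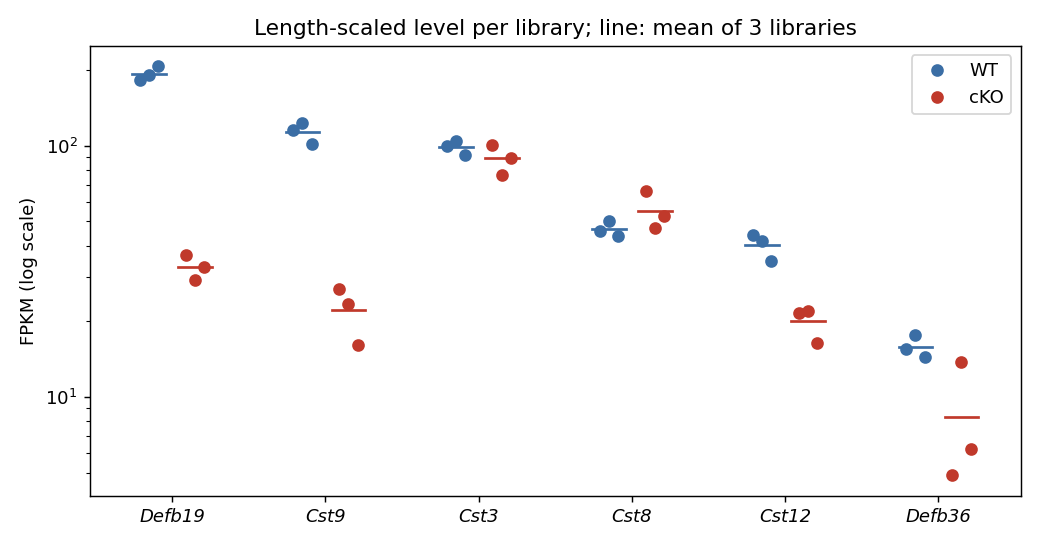
FPKM of the 6 genes on a log axis, with 1 point per library (blue WT, red cKO) and a line at the mean of 3 libraries. In WT the order runs from Defb19 (mean 194 FPKM) to Defb36 (15.9), and in cKO Cst3 (89.0) and Cst8 (55.2) stand highest.

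The 2 genes that led to the choice were lower in every cKO library. Defb19 stood at 14.6, 11.6 and 13.1 CPM in cKO libraries 1, 2 and 3 and at 73.1, 76.1 and 82.4 CPM in WT libraries 1, 2 and 3. The groups lay far apart, with the lowest WT value several times above the highest cKO value. Its mean was 13.1 ± 1.49 CPM in cKO testes against 77.2 ± 4.77 CPM in WT testes, a 5.90-fold difference (log2 fold change -2.56, SE 0.14, 95% confidence interval -2.87 to -2.25). Cst9 stood at 18.6, 16.2 and 11.2 CPM in cKO and at 81.0, 85.4 and 70.7 CPM in WT. Again no cKO value came near a WT value. The means were 15.3 ± 3.81 and 79.0 ± 7.53 CPM, 5.16-fold apart (log2 fold change -2.37, SE 0.186, 95% confidence interval -2.78 to -1.96). Of the tested genes, 42 had a lower log2 fold change than Defb19 and 55 had a lower one than Cst9. These places follow from the way the 2 genes were chosen.

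Of the other 4 genes, Cst12 and Defb36 were lower by less. Cst12 stood at 14.2, 14.6 and 10.9 CPM in cKO and at 29.4, 27.6 and 23.0 CPM in WT, with no overlap. Its means of 13.2 ± 2.04 and 26.7 ± 3.28 CPM differed 2.02-fold (log2 fold change -1.01, SE 0.179, 95% confidence interval -1.41 to -0.62). Defb36 stood at 2.30, 6.52 and 2.93 CPM in cKO and at 7.41, 8.32 and 6.82 CPM in WT. All 3 cKO values were below the WT values, but cKO library 2 lay close under the lowest of them. The means were 3.92 ± 2.27 and 7.51 ± 0.755 CPM (log2 fold change -0.94, SE 0.366, 95% confidence interval -1.75 to -0.14), and these rest on 35 to 125 counts per library. Without cKO library 2 the log2 fold change of Defb36 was -1.51.

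Cst8 and Cst3 did not separate the groups. Cst8 stood at 56.8, 40.6 and 45.1 CPM in cKO and at 39.8, 43.1 and 37.8 CPM in WT, with overlapping ranges and means of 47.5 ± 8.36 and 40.2 ± 2.68 CPM (log2 fold change 0.24, SE 0.149, 95% confidence interval -0.09 to 0.57). Cst3, the gene of the broadly made cystatin C, stood at 129, 97.9 and 114 CPM in cKO and at 128, 133 and 118 CPM in WT. Its highest cKO value lay within the WT range (log2 fold change -0.15, SE 0.128, 95% confidence interval -0.43 to 0.13). Of the 6 genes, 3 (Defb19, Cst9 and Cst12) were past an adjusted p of 0.05 in the lower direction by edgeR, where 1.84% of all tested genes were, and none in the higher direction, where 1.5% were (3.35% in either direction). All 3 cKO values were below all 3 WT values for 4 of the 6 genes, and for 10.9% of all tested genes. The median log2 fold change was -0.98 over the 6 genes and 0.0026 over all tested genes. Since the choice of the genes used this contrast, nothing is read from these counts. Cst12 was not past the threshold without cKO library 3, WT library 1 or WT library 2, which left 2 of the 6 genes past it, and without cKO library 2 Defb36 was past it as well, which made 4 of 6.

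**Figure D2:**
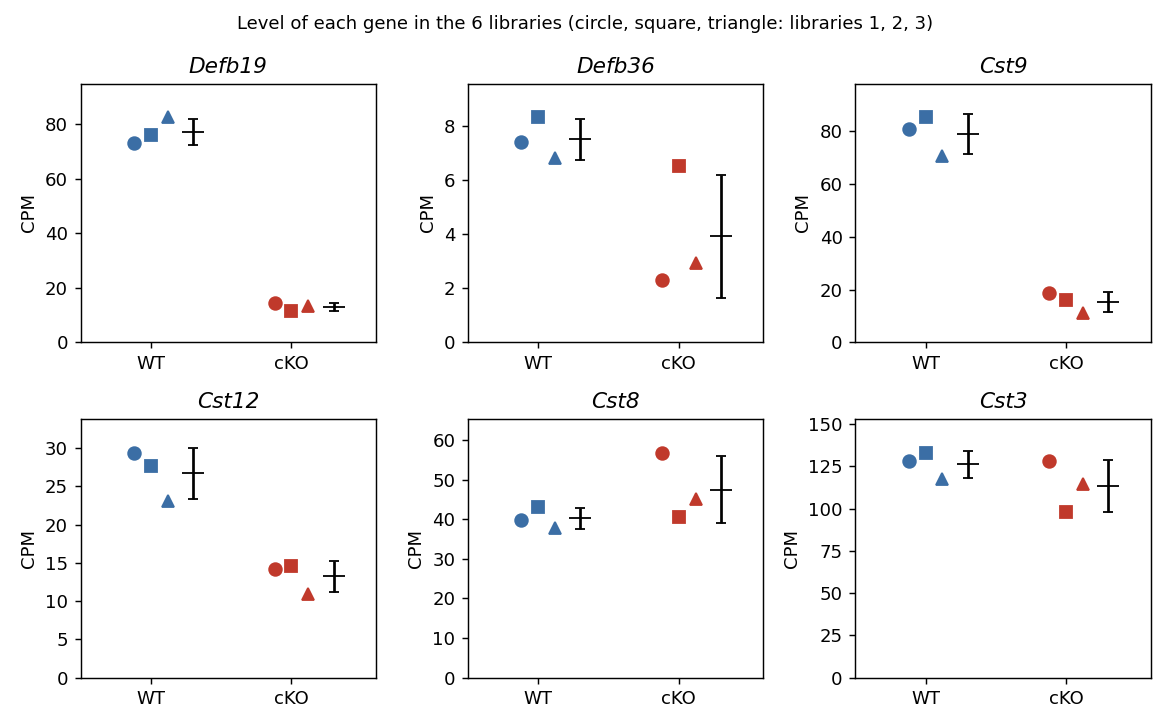
CPM of each of the 6 genes in the 6 libraries (circle, square and triangle are libraries 1, 2 and 3; blue WT, red cKO), with the mean and SD of each group beside the points and each axis starting at 0. Defb19 (11.6 to 14.6 CPM in cKO, 73.1 to 82.4 CPM in WT) and Cst9 are far apart between groups, Cst12 and Defb36 less so, and Cst8 and Cst3 overlap.

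The 2 clusters lie 4.005 Mb apart. In the C57BL/6NJ coordinates that the files use, the cystatin genes run from Cst12 (chr2:157597710-157601895, plus strand) through Cst8 (chr2:157607122-157613932, plus) and Cst9 (chr2:157657890-157661481, plus) to Cst3 (chr2:157705628-157709598, minus), over 112 kb. Defb19 (chr2:161710441-161714487, minus) and Defb36 (chr2:161738421-161746643, plus) span 36.2 kb. Cst8 starts 5.23 kb after the end of Cst12, Cst9 a further 44.0 kb on, and Cst3 lies 44.1 kb beyond Cst9. Cst13 lies between Cst8 and Cst9, and 9230104L09Rik between Cst9 and Cst3. The latter had too few counts to test, with 0, 0 and 1 in the cKO libraries and 7, 4 and 5 in the WT libraries, so that no cKO count reached a WT count. Cst11, before Cst12, was likewise too rare to test, at 5, 0 and 7 counts in cKO and 12, 8 and 18 counts in WT. These 2 genes were named after their values were seen. All 9 genes of the cluster from Cstl1 to Cst3 together gave 232, 180 and 190 CPM in cKO and 294, 310 and 267 CPM in WT. Cst9 made up 27.2 ± 0.594% of those counts in WT and 7.63 ± 1.6% in cKO, while the share of Cst3 was 43.6 ± 0.586% and 56.7 ± 3.04% and that of Cst8 was 13.9 ± 0.311% and 23.6 ± 0.968%. A share of a total rises when another part of the total falls. By CPM, neither Cst3 nor Cst8 separated the groups.

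Genes around the clusters were tested in the same fit where they had enough counts. Around the cystatin genes, the tested ones start at -377 to 1048 kb from the start of Cst12. Around the beta-defensin genes, all tested ones lie after Defb36. Genes before Defb19, or between Defb19 and Defb36, had too few counts to test. Around the cystatin genes, 0 of 7 tested neighbours were called by edgeR, DESeq2 or limma-voom, with 1 at an unadjusted p under 0.05 (edgeR), and around the beta-defensin genes each tool called 1 of 6. The closest neighbour before Cst12 is 8030411F24Rik, listed by RefSeq as Cstdc1, a cystatin domain gene. Its mean was 9.24 ± 3.17 CPM in cKO testes against 14.9 ± 2.4 CPM in WT testes, a log2 fold change of -0.69 with an SE of 0.267 (edgeR adjusted p = 0.232). Cst13, named outside the rule for its place among the 6 genes, was rare at 1.40 ± 1.10 and 1.97 ± 0.827 CPM (-0.48, edgeR adjusted p = 0.775). The tested gene nearest to Defb36 is Rem1, which encodes a small GTPase, with means of 19.8 and 19.9 CPM in cKO and WT testes (-0.01 on the log2 scale, edgeR adjusted p = 0.99). The called neighbour was Id1, an inhibitor of helix-loop-helix transcription factors, 165 kb after the start of Defb19. It was higher in cKO testes, at 60.1 ± 11.1 CPM against 34.1 ± 6.33 CPM in WT, by 0.82 on the log2 scale (SE 0.175; edgeR adjusted p = 0.0267). That call was lost in 4 of 16 alternative fits, among them those without WT library 1 or WT library 3.

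**Figure D3:**
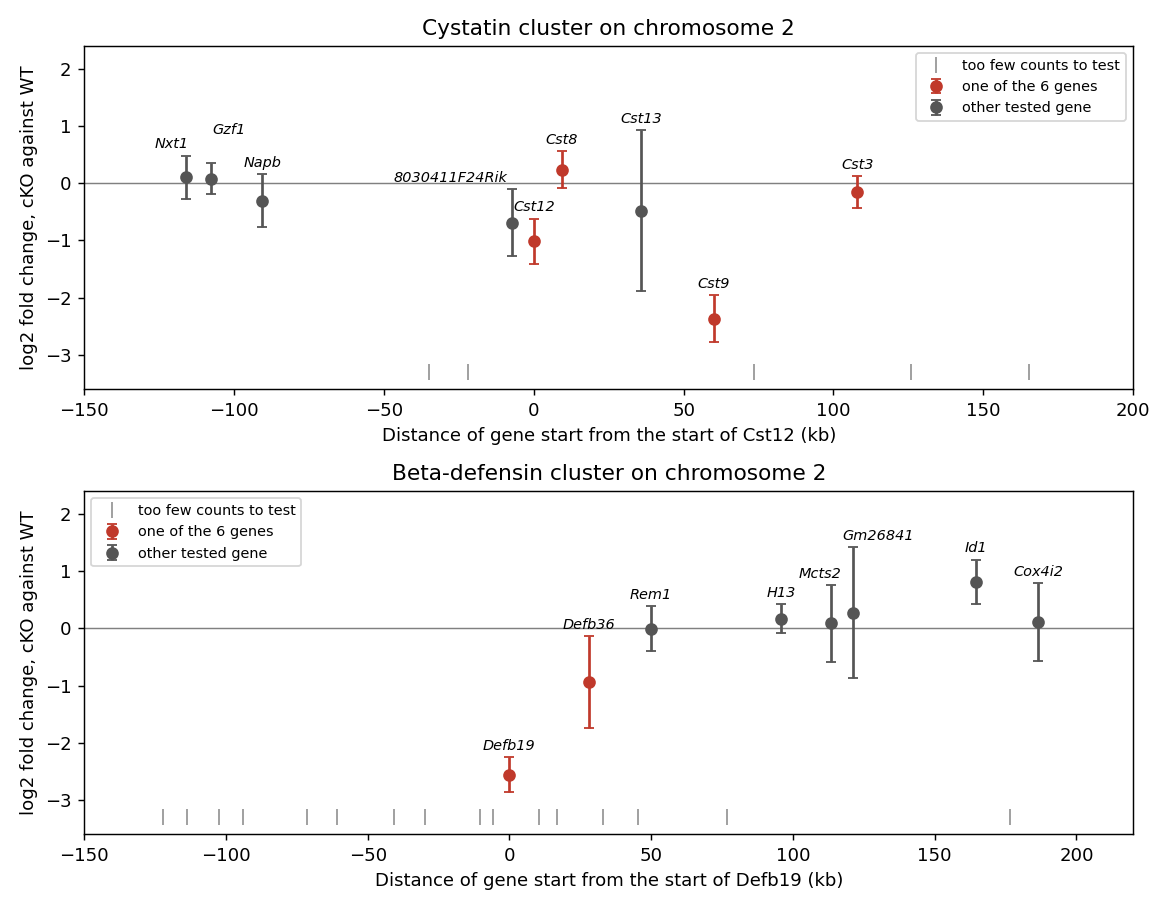
Log2 fold change (cKO against WT, with 95% confidence interval) of tested genes by the distance of their start from that of Cst12 (top) or Defb19 (bottom), in kb. The 6 genes are red, other tested genes grey, and grey ticks mark genes with too few counts to test. Cst9 (-2.37) and Defb19 (-2.56) stand low beside Cst8 (0.24), Cst3 (-0.15) and Rem1 (-0.01).

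The rest of the beta-defensin family was almost silent. The count table lists 41 beta-defensin genes, 11 on chromosome 2, 23 on chromosome 8, 5 on chromosome 14 and 2 on chromosome 1. Of the 39 beside Defb19 and Defb36, only Defb42 had enough counts to be tested, 14 had 0 counts in all libraries, and no gene had more than 45 counts in a library. Defb42, on chromosome 14, had means of 1.87 ± 1.25 CPM in cKO testes and 1.84 ± 0.568 CPM in WT testes, 0.01 apart on the log2 scale (SE 0.577; edgeR adjusted p = 0.994). Defb19 alone made up 86.8 ± 2.07% of all beta-defensin counts in WT and 64.6 ± 12.6% in cKO, with 50.1% in cKO library 2. Defb36 made up 8.47 ± 1.10% and 18.6 ± 8.77%, a larger share in cKO of a smaller total, although its own CPM was lower there. The family as a whole gave 86.4 to 93.0 CPM in WT and 17.8 to 23.1 CPM in cKO. Of 4 receptors named for beta-defensins, Ccr6 and Mc1r had too few counts to test. Ccr2 (-0.12, edgeR adjusted p = 0.914) and Tlr4 (-0.83, edgeR adjusted p = 0.421) passed the threshold in none of the edgeR, DESeq2 and limma-voom fits, and 0 of the 2 had an unadjusted p under 0.05.

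Other cystatins were scarcer than Cst3. Of 28 further genes of the cystatin superfamily listed, 17 were matched and 9 tested, and edgeR and limma-voom called 0 of them, DESeq2 1, and 3 had an unadjusted p under 0.05. Their median log2 fold change was -0.50, against 0.0026 over all tested genes, and 7 of the 9 values were negative. The 9 include 8030411F24Rik and Cst13, whose values are given above as those of neighbours, so they are not counted afresh. Some of the 9 were rare, such as Cst13 with an SE of 0.641. The most abundant was Cstb, which encodes the intracellular inhibitor cystatin B, with 17.5 ± 6.59 CPM in cKO testes against 21.8 ± 2.46 CPM in WT testes (-0.32 on the log2 scale, edgeR adjusted p = 0.584). The gene nearest to a call was Ahsg, which encodes the plasma glycoprotein fetuin A with cystatin-like domains. It stood at 4.68, 4.99 and 8.57 CPM in cKO and at 12.4, 10.2 and 15.3 CPM in WT. Its log2 fold change was -1.06 with an SE of 0.277 (edgeR adjusted p = 0.0712), and it was called lower in 4 of 16 alternative fits. Stfa3, a stefin gene, had a positive value (1.47, SE 0.53, edgeR adjusted p = 0.197), and Cst6, which encodes cystatin E/M, a negative one (-1.21, SE 0.681, edgeR adjusted p = 0.432), both at under 3 CPM in either group.

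Among the proteases that cystatins inhibit, Ctsl was lower in cKO. Of 12 listed cysteine cathepsins and legumain, 11 were tested, 1 was lower and 0 were higher by edgeR, with a median log2 fold change of -0.06. Cathepsin L, encoded by Ctsl on chromosome 13, is a lysosomal protease that Sertoli cells are also known to secrete. It stood at 150, 231 and 155 CPM in cKO and at 445, 664 and 559 CPM in WT, so that the groups did not overlap. The means were 179 ± 45.2 and 556 ± 109 CPM, a log2 fold change of -1.64 with an SE of 0.197 (edgeR adjusted p = 0.000892), and all 16 alternative fits called it lower. Cathepsin B, the second most abundant of the list, encoded by Ctsb, had means of 269 ± 5.70 CPM in cKO testes and 267 ± 21.4 CPM in WT testes (0.01 on the log2 scale, edgeR adjusted p = 0.979). Ctsf (0.29, edgeR adjusted p = 0.357), Ctsc (-0.28, edgeR adjusted p = 0.454) and Ctsh (-0.24, edgeR adjusted p = 0.585) were not called either.

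Other secreted antimicrobial proteins had no called gene by edgeR. Of 18 listed, 15 were matched and 7 tested, and 0 were called by edgeR and limma-voom, 1 higher and 1 lower by DESeq2, with 4 at an unadjusted p under 0.05. Wfdc1, a whey acidic protein gene, stood at 17.7, 19.3 and 29.1 CPM in the cKO libraries against 40.8, 47.6 and 30.6 CPM in the WT libraries (-0.84 on the log2 scale, edgeR adjusted p = 0.0655). Lcn2, which encodes an iron-trapping lipocalin, stood at 8.37 ± 2.21 and 5.22 ± 1.17 CPM (log2 fold change 0.68, edgeR adjusted p = 0.273).

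Against the Sertoli cell markers, the 6 genes fell into different places. Of 27 fetal Sertoli markers listed without these genes, all 27 were tested, 18 were lower and 0 higher by edgeR, and their median log2 fold change was -1.25. Several of them were known to be lower from earlier results of these data, so this list is not independent evidence of its direction. Defb19 lay below all but 4 of the 27 markers and Cst9 below all but 6. The 4 were Hsd17b3 (-3.31), Fshr, Etd and Sox8 (-2.78), of which Fshr and Etd were named after their values were seen. Cst12 and Defb36 each had 16 markers with lower values, Cst3 had 23 and Cst8 had 25. The 27 markers summed to 2007 to 2524 CPM in cKO and 4199 to 5403 CPM in WT. Per summed marker level, the cKO mean was 0.351 times the WT mean for Defb19 and 0.394 times for Cst9, near 1 for Cst12 (1.01) and Defb36 (1.05), and above 1 for Cst3 (1.86) and Cst8 (2.44). Per Wt1, a Sertoli marker that was not called and was named after its values were seen (200 ± 15.98 CPM in cKO, 171 ± 6.78 CPM in WT, edgeR adjusted p = 0.37), the same ratios were 0.144, 0.164, 0.423, 0.450, 0.768 and 1.003. Per Sox9, a marker of the same list that was called lower and is named outside the rule, the ratios were 0.362, 0.392, 1.02, 1.09, 1.91 and 2.47. For Defb19 and Cst9 every cKO library lay below every WT library by each reference. Both were chosen for their low cKO counts in these same libraries, so nothing is read from this. The size of the ratio depended on the reference for all 6 genes. The summed level weighs each marker by its abundance. Mean Clu was 919 CPM in WT against 507 in cKO, and mean Amh was 897 against 168. Nr5a1, also abundant, had a log2 fold change of only 0.05. Whether Sertoli cells alone make each marker in these testes was not tested. The ratios, those near 1 included, are therefore not read as changes per Sertoli cell.

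**Figure D4:**
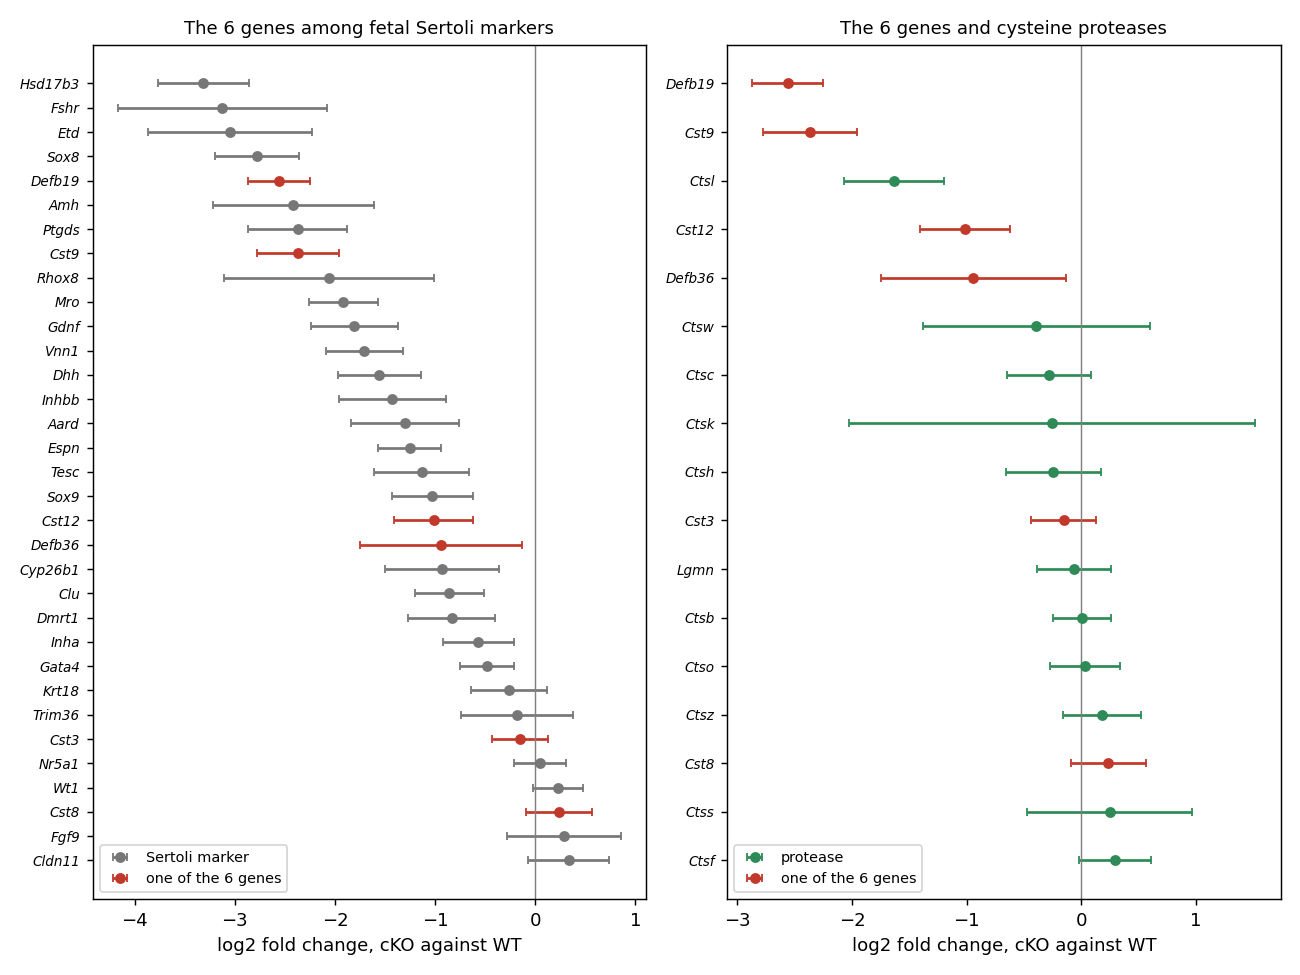
Log2 fold change (cKO against WT) with 95% confidence interval for the 6 genes (red) beside 27 fetal Sertoli markers (left, grey) and 11 cysteine proteases (right, green), ordered by value. Defb19 (-2.56) and Cst9 (-2.37) stand near Sox8 and Amh, Ctsl (-1.64) is the lowest protease, and Cst8 (0.24) lies near Wt1 (0.23).

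Markers of other cell types that can make these proteins were measured beside them. Macrophages make cystatin C, and 13 macrophage and leukocyte markers summed to 82.1 to 88.7 CPM in cKO and 69.6 to 92.4 CPM in WT, with 0 called by edgeR, DESeq2 or limma-voom and 1 at an unadjusted p under 0.05. Ducts of the later epididymis make Cst8 and many beta-defensins, and 9 markers of mesonephros and ducts summed to 65.5 to 85.2 CPM in cKO and 41.5 to 59.4 CPM in WT, with Emx2 called higher (1.06, edgeR adjusted p = 0.00839). Their part in the value of Cst8 was not tested. Pregranulosa markers, of the supporting cells of the ovary, summed to 320 to 389 CPM in cKO and 130 to 153 CPM in WT, with Foxl2, Wnt4 and Runx1 higher among 10. Germ cell markers summed to 1017 to 1833 CPM in cKO and 1595 to 2191 CPM in WT, with Mov10l1 the 1 lower among 12 tested, a call lost in 7 of 16 alternative fits. Fetal Leydig cell markers summed to 5255 to 7064 and 3908 to 4610 CPM (1 of 7 higher, Fdx1) and interstitial progenitor markers to 12842 to 20752 and 8659 to 13957 CPM (1 of 9 higher, Lum). Peritubular myoid markers summed to 752 to 854 and 934 to 1107 CPM (Des higher and Ptch1 lower of 6) and endothelial markers to 521 to 633 and 483 to 560 CPM (1 of 7 higher, Kdr). Of 16 alternative fits, the call was lost in 7 for Lum, 6 for Des, 4 for Fdx1, 3 each for Kdr and Ptch1 and 1 for Emx2. Without WT library 3 none of these 6 genes nor Mov10l1 was called. Without WT library 1 the calls of Lum, Des, Fdx1, Kdr and Mov10l1 were lost, without WT library 2 those of Lum, Des and Ptch1, without cKO library 3 those of Lum, Kdr, Ptch1 and Mov10l1, without cKO library 1 those of Lum and Des, and without cKO library 2 that of Mov10l1. Whether any of these shares in the values of the 6 genes was not tested.

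Genes with the pattern most like that of Defb19 and Cst9 were found by Pearson's r of log2 CPM over the 6 libraries, taken over the 13522 genes labelled protein coding whose average was 2 CPM or more. For Defb19 they were Sgpp2, Slco3a1, Sel1l3, Kcna6 and Slc30a2, with r of 0.995 to 0.997. Sgpp2, a sphingosine-1-phosphate phosphatase gene, had means of 4.93 ± 0.359 CPM in cKO testes and 23.1 ± 1.66 CPM in WT testes, -2.23 on the log2 scale. For Cst9 they were D930015E06Rik, Rnd2, Cerk, Sox8 and Masp1, with r of 0.995 to 0.997. Sox8, a relative of the Sertoli factor Sox9, stood at 13.3 ± 3.59 and 91.2 ± 0.913 CPM and Masp1, which encodes a complement protease, at 7.26 ± 1.55 and 27.9 ± 1.78 CPM. These r values rest mainly on the difference between the groups, and 17 genes for Defb19 and 19 for Cst9 had r over 0.99. They do not measure the size of that difference. Among the 5 for Defb19, log2 fold changes ran from -3.54 (Sel1l3) to -0.48 (Kcna6, edgeR adjusted p = 0.151). Among the 5 for Cst9 they ran from -2.78 (Sox8) to -0.14 (D930015E06Rik, edgeR adjusted p = 0.574). On deviations from the group means, where that difference is removed, the lists were other ones, Pml, Ncoa1, Fbxo10, Dolk and Foxn3 for Defb19 and Max, Paqr7, Cnnm2, Bet1 and B4galt3 for Cst9. By this measure 22 genes for Defb19 and 3 for Cst9 had r over 0.99. These are the highest of 13522 values, each from only 6 libraries, so no shared regulation is read from them. None of the 5 genes most like Defb19 by log2 CPM was among its 5 by deviations, and the same held for Cst9.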

How the data were processed

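RNA of 6 testis samples (3 cKO, 3 WT) was counted per gene. The submitters' processing notes list HISAT2 2.0.5 and GRCm38. How reads were counted, and whether by strand, is not stated in the labels. Per the file headers, the deposited counts are raw whole numbers per gene, and the authors' FPKM values are scaled by gene length and library. Gene identifiers and coordinates in the files are of the C57BL/6NJ annotation and were not mixed with GRCm38, which is named only beside sequences. No row of the table overlaps 5 of the 6 genes, and a pseudogene with 9 counts in all lies within Defb36. In GENCODE M21 transcripts, 0 of the 31-base stretches of the 6 genes were shared with another gene.

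Counts passing edgeR's filterByExpr (18383 genes) were fitted with edgeR 4.0.16 (R 4.3.3; TMM, glmQLFit, glmQLFTest, no covariate), with Benjamini-Hochberg adjustment and a threshold of 0.05. SEs are the log2 fold change divided by the square root of F. CPM use TMM-scaled totals, and log2 CPM a prior count of 2. In a simulation of cKO against WT (18383 genes), 44% of the genes given a log2 change of 1 were recovered, 86% of those given 2, and 12 of 142 calls were false. No libraries of a group were alike within sampling noise (chi-square of their counts over its degrees of freedom 12.2 to 37.4). P-values measure the spread between these libraries, each taken here to be from a separate mouse. Alternatives were other scalings, DESeq2 1.42.0, limma 3.58.1 (voom, and trend on log2(FPKM + 0.1) or log2(FPKM + 1)), other filters, a replicate block and leaving out each library.

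The 6 genes and the gene lists were chosen with earlier results of these data known. Named genes are the 6, per list the 4 with the smallest p and the 2 most abundant, called or nearest chromosome 2 neighbours, and the 5 most alike by correlation. Others are marked. Some genes that this rule takes are given only in counts.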

Additional observations from a re-analysis of the deposited data

How the results depend on the processing

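Defb19, Cst9, Cst12, Cst3 and Cst8 moved by less than the spread between replicates in all 16 alternative fits, and so did Defb36 in 15. That spread is the pooled SD of log2 CPM within the groups. It is a loose limit, since the alternative fits reuse most or all of the same counts. The log2 fold change ran from -2.64 to -2.48 for Defb19, -2.54 to -2.18 for Cst9, -1.11 to -0.89 for Cst12, -0.25 to -0.05 for Cst3 and 0.09 to 0.34 for Cst8. For Defb36 it ran from -1.51 (without cKO library 2) to -0.68 when 1 library was left out. Over all genes, 339 were lower and 276 higher by edgeR with 3 against 3 libraries. The counts were 571 lower and 524 higher by DESeq2's Wald test, 223 and 149 by limma-trend on log2(FPKM + 0.1), 241 and 156 on log2(FPKM + 1), and 651 and 613 with no low-count filter. With 1 library left out, they ran from 167 to 399 lower and from 105 to 342 higher. The cause was not tested. The lowest counts came without cKO library 3 (170 lower, 134 higher), WT library 1 (218, 105), WT library 2 (190, 180) or WT library 3 (167, 105). With the replicate number as a block (replicate block), 372 were lower and 324 higher, and Defb19, Cst9 and Cst12 stood at -2.56, -2.39 and -1.02. The labels do not say whether the numbers pair the libraries. Deviations of same-numbered libraries correlated at 0.02, 0.18 and 0.03, and those of other cKO and WT libraries at -0.17 to 0.16. With 3 libraries per group these values cannot settle whether libraries were paired. By CPM in place of FPKM, Cst3 and not Defb19 had the highest WT level of the 6. In the 250 bases before the start alone, Cst9 kept 1 of its 2 ACAAAG matches. Defb36 rests on 35 to 125 counts per library, and its coefficient of variation was 58.0% in cKO and 10.05% in WT.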

Other observations

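Camp, Ltf and Ngp, genes of neutrophil granules that stand on the list of antimicrobial proteins, varied widely within both groups. Camp stood at 1.32, 9.24 and 8.63 CPM in cKO libraries 1, 2 and 3 and at 1.18, 2.66 and 0.718 CPM in WT libraries 1, 2 and 3. Ltf stood at 6.72, 19.9 and 30.6 CPM and at 1.43, 11.9 and 2.21 CPM, and Ngp at 5.66, 19.2 and 30.8 CPM and at 4.73, 15.4 and 2.15 CPM. For all 3 genes, cKO library 1 was the lowest of the cKO libraries and WT library 2 the highest of the WT libraries. None was called by edgeR (adjusted p = 0.134, 0.202 and 0.362 for Camp, Ltf and Ngp). Of 16 alternative fits, 3 called Camp higher (DESeq2's Wald test, no low-count filter, and without cKO library 1), 3 called Ltf higher (no low-count filter, the replicate block, and without WT library 2) and 1 called Ngp higher (no low-count filter).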
